A study of Rattus norvegicus with 32 samples.

Results

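The genes described here are 10 regulators of mitochondrial biogenesis and dynamics in the rat left ventricle: the coactivators Ppargc1a and Ppargc1b, the transcription factors Esrra and Nrf1, the mitochondrial DNA factor Tfam, the fusion genes Mfn1, Mfn2 and Opa1, the fission gene Dnm1l and the mitophagy gene Pink1. They were chosen by name, and every probe that either version of the array annotation assigns to them was taken, which gave 18 of the 45598 different probes on the array. Within a sex, probes entered the analysis if the scanner software marked them as well above background on 80% or more of the arrays in any group, which kept 17 of these probes among 25866 in males and all 18 among 25395 in females. Where a gene has several probes, the one whose mean level across all 32 arrays was highest is called its leading probe, and the gene was counted through it. The hearts came from adult male and female Wistar rats and were collected 20 h after surgery, each RNA sample being hybridised to an array of its own. Sham rats had surgery without infection, and CLP rats had cecal ligation and puncture, which causes abdominal sepsis. CLP plus landiolol rats had the same procedure and then an infusion of landiolol, which blocks β1-adrenergic receptors for a short time. The drug was diluted in saline, and CLP rats without it were given saline. Each sex had 5 sham, 5 CLP and 6 CLP plus landiolol rats, buprenorphine was used against pain and no antibiotics were given. By the methods of the study, the hearts were imaged in vivo and perfused ex vivo before they were collected, and only samples with enough RNA of sufficient integrity were measured. Males and females were hybridised on separate slides. The tissue was whole left ventricle, in which fewer cells of a type and less RNA per cell cannot be told apart.

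PGC-1α and PGC-1β, the proteins of Ppargc1a and Ppargc1b, bind no DNA themselves and enhance the activity of transcription factors such as ERRα (the product of Esrra) and NRF1. These factors switch on nuclear genes of the respiratory chain and Tfam, whose product is carried into mitochondria, where it packs mitochondrial DNA and starts its transcription. The network of mitochondria is remodelled by GTPases: the mitofusins Mfn1 and Mfn2 join outer membranes, Opa1 joins inner membranes and shapes cristae, and Drp1, the product of Dnm1l, constricts mitochondria for division. The kinase Pink1 accumulates on damaged mitochondria and marks them for removal by autophagy. The heart, which draws its energy largely from fatty acid oxidation, depends on all of these functions.

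The measurement of a gene on this array rests on probes of 60 bases, and 5 of them are shown. They are the leading probes of both coactivators, Nrf1 and Dnm1l, and a probe of Pink1. That Pink1 probe followed the brightness of the array most closely of the member probes, as given below. All 5 are read 5′ to 3′ in the sense of the transcript, at the positions of build rn4 that the files give. The last codon of Nrf1, a stop codon at the end of an open frame, is in capitals.
Ppargc1a, probe A_44_P305482, chr14:64365667-64365726, plus strand: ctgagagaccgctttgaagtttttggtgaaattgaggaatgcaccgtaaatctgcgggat
Ppargc1b, probe A_44_P116300, chr18:57280683-57280742, minus strand: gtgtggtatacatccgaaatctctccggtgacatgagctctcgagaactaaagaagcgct
Nrf1, probe A_64_P128454, chr4:57048071-57048130, plus strand: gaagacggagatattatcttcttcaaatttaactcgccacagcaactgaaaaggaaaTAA
Dnm1l, probe A_64_P023704, chr11:86617771-86617830, minus strand: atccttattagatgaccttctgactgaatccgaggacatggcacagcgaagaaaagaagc
Pink1, probe A_43_P10413, chr5:157097864-157102903, minus strand: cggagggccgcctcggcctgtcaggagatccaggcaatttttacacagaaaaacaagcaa
The 60 bases of the last probe are spread over 5040 bases of the genome, as those of a probe across a splice junction are, and it is called the junction probe below. The leading probe of Pink1 (A_64_P349856, chr5:157091677-157091736) and the remaining probe (A_44_P359032, chr5:157091288-157091347) lie further along the gene on the minus strand. The other leading probes were A_42_P780882 for Esrra (chr1:209587731-209587790), A_43_P15316 for Tfam (chr20:18112519-18112578), A_42_P812194 for Mfn1 (chr2:118784873-118784932), A_42_P465608 for Mfn2 (chr5:164951298-164951357) and A_42_P587014 for Opa1 (chr11:72894823-72894882, mapped only in the female files). The files do not state the exon or untranslated region of a probe.

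The first comparison asked which of these genes differed between CLP and sham hearts. Both coactivators and ERRα were lower after CLP, Ppargc1b and Esrra in both sexes and Ppargc1a in females, and Mfn1 was lower in males. At an FDR of 1%, limma called 3 of the 10 genes lower in males (Ppargc1b, Esrra and Mfn1) and 3 lower in females (Ppargc1a, Ppargc1b and Esrra), and none was called higher in either sex. Over all probes tested, 3.94% were called lower and 3.88% higher in males, and 1.82% were called in each direction in females. The leading probe was lower after CLP for 8 of the 10 genes in each sex, with medians of -0.57 in males and -0.46 in females on the log2 scale, beside 0.009 and -0.015 over all probes. Arrays of the CLP and sham groups did not overlap for 4 of the 10 genes in each sex, as was the case for 12.3% of all probes in males and 8.32% in females.

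Ppargc1b, the coactivator PGC-1β, had the largest mean change of the 10 genes over both sexes. In males its levels (log2, quantile-normalised, as all levels below) were 10.60, 11.14, 10.62, 11.32 and 10.96 in the sham hearts and 8.97, 8.55, 8.67, 7.77 and 7.42 in the CLP hearts. Every CLP heart thus lay below every sham heart, with a gap of more than 1 unit between the groups. The mean went from 10.93 ± 0.32 (SD, n = 5) to 8.28 ± 0.65 (n = 5), which is 6.29-fold lower (log2 fold change -2.65, standard error 0.28, adjusted p = 2.87e-05, limma). In females the sham hearts had 10.20, 10.60, 10.40, 10.91 and 10.29 and the CLP hearts 8.62, 9.24, 7.88, 9.11 and 9.04. These groups did not overlap either, and the mean was 3.25-fold lower (log2 fold change -1.70, standard error 0.33, adjusted p = 0.00387, limma). On each of the 2 slides of a sex the change had the same direction, with -2.14 and -3.37 in males and -1.12 and -2.25 in females. The male call held without any single array of its groups, and the female call was lost in 3 of the 10 such fits (without replicates 2 or 4 of the sham or 3 of the CLP group), with adjusted p-values of up to 0.0120.

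Ppargc1a, the coactivator PGC-1α, was called lower in females and not in males. The female sham hearts had levels of 9.97, 9.83, 8.80, 9.18 and 8.97 and the CLP hearts of 7.98, 8.10, 8.18, 8.08 and 6.69. All CLP hearts were below all sham hearts, and the difference was 2.91-fold (log2 fold change -1.54, standard error 0.28, adjusted p = 0.00304, limma). In males the sham hearts had 7.75, 8.80, 8.81, 8.73 and 8.43 and the CLP hearts 9.59, 7.67, 7.15, 6.30 and 6.66. The groups overlapped because replicate 1 of the CLP group had the highest level of all 16 male hearts, whereas the other 4 CLP hearts were below every sham heart. The log2 fold change was -1.03 (standard error 0.47, adjusted p = 0.163, limma), and without that array it was -1.56 (adjusted p = 0.00308). On the first male slide, which held that array, the change was -0.14, and on the second -2.18. The same array was the highest of the male CLP group for Ppargc1b as well, with 8.97, but stayed below the sham hearts there. The second probe of Ppargc1a (A_44_P139203, chr14:64374383-64374442) gave -1.14 in males (adjusted p = 0.304) and -1.69 in females (adjusted p = 0.0297).

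Esrra, which encodes the nuclear receptor ERRα, had levels of 13.85, 14.34, 14.16, 14.25 and 13.87 in male sham hearts and of 13.19, 13.65, 13.21, 13.39 and 13.70 in male CLP hearts. In females the sham hearts had 14.46, 14.16, 13.95, 14.13 and 13.95 and the CLP hearts 13.32, 13.60, 13.40, 13.02 and 12.99. The groups were separate in both sexes, by a narrow margin in males. The change was -0.67 in males, which is 1.59-fold lower (standard error 0.16, adjusted p = 0.00853, limma), and -0.86 in females, 1.82-fold lower (standard error 0.17, adjusted p = 0.00415). The male call was close to the threshold and was lost in 7 of the 10 fits without a single array, with adjusted p-values of up to 0.0259. It was also lost with the slide (adjusted p = 0.0119) or the row of the slide (adjusted p = 0.0121) as a term, with 75th percentile scaling (adjusted p = 0.0137), without a filter (adjusted p = 0.0146) and in a fit of the male CLP and sham arrays alone (adjusted p = 0.0169). In females it was lost in 5 of 10 fits without a single array and in the fit of those arrays alone (adjusted p = 0.0129). All female sham arrays were in row 1 of a slide, and with the row as a term none of the 3 female calls passed, the changes being -1.26 for Ppargc1a (adjusted p = 0.0284), -1.90 for Ppargc1b (adjusted p = 0.0103) and -0.69 for Esrra (adjusted p = 0.0382).

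Nrf1 and Tfam, which act downstream of the coactivators, were the members with a positive sign. Nrf1, a transcription factor for nuclear genes of the respiratory chain, had group means of 7.29 ± 0.22 in sham and 7.56 ± 0.15 in CLP males, and of 7.30 ± 0.21 and 7.43 ± 0.51 in females (SD, n = 5). Its log2 fold changes were 0.28 in males (95% interval -0.025 to 0.578, adjusted p = 0.217) and 0.13 in females (-0.35 to 0.62, adjusted p = 0.794). A second probe of Nrf1 (A_44_P622841) was not well above background on any male sham array and was tested only in females, where it gave -0.26 (adjusted p = 0.656). For Tfam, which packs mitochondrial DNA, the means were 11.52 ± 0.34 and 11.73 ± 0.23 in males and 11.94 ± 0.28 and 12.04 ± 0.20 in females. The changes were 0.21 (95% interval -0.16 to 0.59) and 0.10 (-0.23 to 0.43), with adjusted p-values of 0.483 and 0.770. Neither gene passed, and the intervals leave room for changes of either sign.

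Mfn1, a GTPase of the outer membrane that joins mitochondria, had nearly the same log2 fold change in both sexes and was called in males. In males the sham hearts had 12.38, 12.32, 12.42, 12.37 and 12.31 and the CLP hearts 11.83, 11.69, 11.48, 11.68 and 11.55. The sham hearts spanned little more than 0.1 units and the groups were well apart (log2 fold change -0.72, standard error 0.11, adjusted p = 0.000339, limma). In females the sham hearts had 12.41, 12.06, 12.22, 12.24 and 12.02 and the CLP hearts 11.67, 11.57, 11.38, 11.20 and 11.49. These groups did not overlap, and the change of -0.73 (standard error 0.17) fell short of the threshold by limma (adjusted p = 0.0113). It passed with normexp background correction (adjusted p = 0.00568) and in the authors' table (adjusted p = 0.00705), and SAM called it lower in both sexes. The other probe of Mfn1 (A_44_P339806, chr2:118782965-118783024) gave -0.23 in males (adjusted p = 0.447) and -0.33 in females (adjusted p = 0.332), so the call of Mfn1 rests on 1 of its 2 probes. With the probes of a gene averaged, which was added once the data had been seen, Mfn1 did not pass in males (adjusted p = 0.0143).

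None of the remaining genes of fusion, fission and mitophagy passed at 1%. Opa1, the GTPase of the inner membrane, ranged from 12.56 to 13.23 in male sham hearts and from 12.09 to 12.70 in male CLP hearts, a change of -0.61 (standard error 0.18, adjusted p = 0.0273). In females it was -0.38 (standard error 0.21, adjusted p = 0.293). The second probe of Opa1 (A_44_P409729, chr11:73006882-73006941) gave -0.29 in both sexes (adjusted p = 0.526 in males and 0.516 in females). The annotation names different transcripts for these probes, and whether they measure the same transcript was not tested. Dnm1l, the GTPase of fission, had 8.55, 8.79, 8.69, 9.05 and 8.65 in male sham hearts and 7.93, 8.37, 8.08, 8.35 and 8.41 in male CLP hearts, which did not overlap. Its change was -0.52 in males (standard error 0.14, adjusted p = 0.0219) and -0.54 in females (standard error 0.15, adjusted p = 0.0386), and its other 2 probes gave between -0.66 and -0.33. For Mfn2, the second mitofusin, the changes were -0.32 (95% interval -0.75 to 0.10, adjusted p = 0.323) and -0.37 (-0.80 to 0.05, adjusted p = 0.283). Pink1 had -0.10 in males (95% interval -0.31 to 0.11) and -0.09 in females (-0.28 to 0.11), with adjusted p-values of 0.581 and 0.642. The leading probe of Pink1 was printed on 10 spots.

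**Figure D1:**
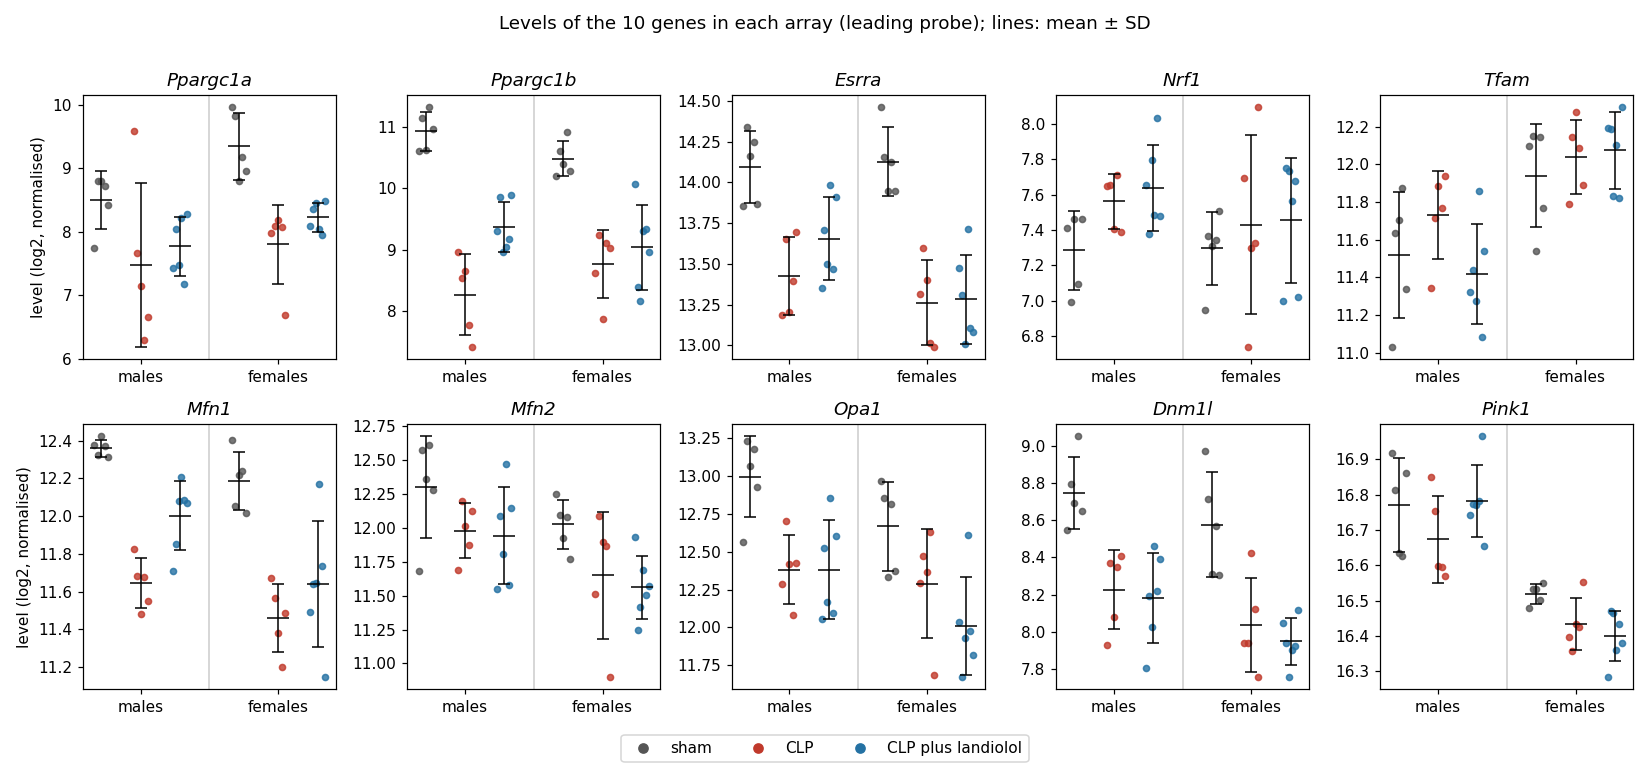
Levels of the 10 genes in each of the 32 hearts, by their leading probe (y axis, log2, quantile-normalised within a sex, with a scale of its own in each panel), for sham, CLP and CLP plus landiolol hearts of males (left) and females (right). Points are hearts, and black lines give the mean and SD of a group, as for Ppargc1b with 10.93 ± 0.32 in male sham and 8.28 ± 0.65 in male CLP hearts. The single high Ppargc1a point of the male CLP group, at 9.59, is replicate 1.

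**Figure D2:**
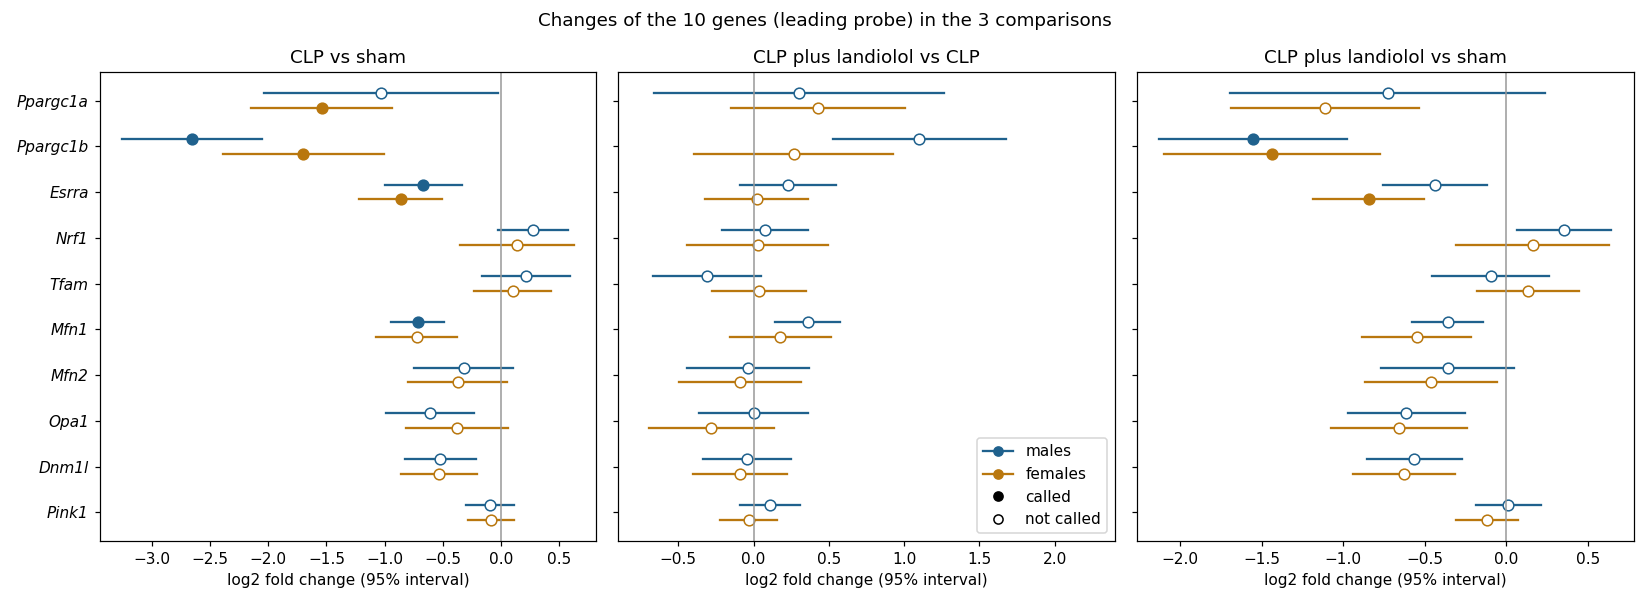
Log2 fold change (x axis) of the leading probe of each gene in the 3 comparisons, males in blue and females in orange, with 95% intervals from limma as lines. Filled points passed the FDR of their comparison, which was 5% in the middle panel and 1% in the others. Filled points are found for Ppargc1a, Ppargc1b, Esrra and Mfn1 alone, and none lies in the middle panel.

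The second comparison asked what landiolol changed in septic hearts. At an FDR of 5%, limma called 0 of the 10 genes in either sex, beside 1.56% of all probes in males and 0.0945% in females. Without adjustment, 2 of the 10 genes passed 0.05 in males, Ppargc1b and Mfn1, and 0 in females, beside 14.8% and 9.34% of all probes. The male count is thus near the share over all probes. SAM called Ppargc1b alone in males and 0 members in females, among 805 and 57 probes called. Ppargc1b had a lowest level of 8.96, a median of 9.25 and a highest level of 9.89 in the 6 male CLP plus landiolol hearts, against 7.42 to 8.97 in the CLP hearts. The groups met only at their edges, and the log2 difference was 1.102 (95% interval 0.53 to 1.68, adjusted p = 0.0554, limma), which missed the threshold. It passed with the slide as a term (adjusted p = 0.0423), not with the row as a term (adjusted p = 0.0776), and passed without replicate 1 of the male CLP group (1.28, adjusted p = 0.0169). The corresponding value in females was 0.265 (95% interval -0.40 to 0.93, adjusted p = 0.862).

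Mfn1 was 0.36 higher after landiolol in males (95% interval 0.14 to 0.58, adjusted p = 0.0997, limma). Without replicate 1 of the male CLP group it was 0.40 higher and passed (adjusted p = 0.0466), and in the full female comparison it was 0.18 higher (-0.16 to 0.51, adjusted p = 0.787). The estimate for Ppargc1a was 0.30 in males (95% interval -0.66 to 1.27) and 0.43 in females (-0.15 to 1.01). On the first male slide, which held replicate 1 of the CLP group, it was -0.48, and on the second 1.42. Esrra had 0.23 in males (-0.09 to 0.55) and 0.02 in females (-0.32 to 0.36). For Opa1, Dnm1l, Mfn2 and Pink1 the estimates ranged from -0.28 to 0.11 in both sexes, and for Nrf1 and Tfam from -0.31 to 0.08.

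The third comparison set CLP plus landiolol hearts beside sham hearts. It shares the sham arrays with the first comparison and the CLP plus landiolol arrays with the second, so the values are given side by side without a test of their likeness. At an FDR of 1%, Ppargc1b was called lower in males, and Ppargc1b and Esrra in females, beside 1.76% and 2.24% of all probes called lower. Ppargc1b was 2.93-fold lower than in sham hearts in males (log2 fold change -1.55, adjusted p = 0.00199), compared with -2.65 for CLP without landiolol. In females it was -1.44 (adjusted p = 0.00691), compared with -1.70. That female call was lost in 9 of the 11 fits without a single array, with adjusted p-values of up to 0.0217 (it held when CLP plus landiolol replicate 1 or 4 was left out), and without a filter (adjusted p = 0.0149). Esrra had -0.44 in males (adjusted p = 0.0771) and -0.84 in females (adjusted p = 0.00281). Ppargc1a had -0.73 in males (adjusted p = 0.350) and -1.11 in females (adjusted p = 0.0140), and the female groups did not overlap. For Mfn1 the values were -0.36 (adjusted p = 0.0359) and -0.55 (adjusted p = 0.0322), and for Dnm1l -0.56 (adjusted p = 0.0167) and -0.63 (adjusted p = 0.0111). In females all sham arrays were in row 1 and all CLP plus landiolol arrays in row 2 of their slides, so row and group cannot be told apart in this comparison. A row term then takes its estimate from the CLP arrays alone. With it neither female call passed, Ppargc1b having -1.93 (adjusted p = 0.206) and Esrra -0.41 (adjusted p = 0.678).

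Whether the sexes responded differently was tested as an interaction on the 24769 probes kept in both, since sex goes together with the slides and levels of males and females cannot be compared. Limma called 0 of the 10 genes and 0% of all probes at an FDR of 5% for CLP vs sham, and the same holds for CLP plus landiolol vs CLP, and 867 and 1217 of all probes had an unadjusted p under 0.05. The member with the largest interaction was Ppargc1b. Its fall after CLP was 0.90 smaller in females than in males (standard error 0.45, adjusted p = 0.9999, limma), and its change with landiolol was 0.82 lower in females (standard error 0.43, adjusted p = 0.972). The difference for Ppargc1a after CLP was -0.52 with a standard error of 0.57 (adjusted p = 0.9999), so its call in females and not in males is not a difference between the sexes by this test. For Mfn1 and Dnm1l the changes after CLP differed between the sexes by -0.01 (standard error 0.19) and -0.02 (standard error 0.21).

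Arrays of a group differed in brightness, and the members followed it to different degrees. The median processed signal per array ranged from 49.2 to 158 among males and from 68.9 to 157 among females, and its group medians were 123, 106 and 97.3 in the male and 124, 110 and 96.1 in the female sham, CLP and CLP plus landiolol groups. Each level was taken as its deviation from the group mean and correlated with the same deviation of the log2 brightness over the 16 arrays of a sex, with 100000 permutations within groups and a Benjamini-Hochberg adjustment over the 17 male and 18 female probes. After quantile normalisation 13 of the 17 probes in males and 9 of the 18 in females still passed an adjusted p of 0.05. The correlation was not run over all probes kept, so whether these counts are particular to the members was not tested. Of the member probes that passed, 10 and 8 were brighter on brighter arrays, and the others were dimmer. The junction probe of Pink1 was the most closely tied, with Pearson's r = -0.95 in males (Spearman's rho -0.93, adjusted permutation p = 0.000595 and 0.00085) and -0.88 in females (rho -0.86, adjusted permutation p = 0.0018 and 0.00282). Without the 2 arrays of a sex whose deviation in brightness lay farthest from the median deviation, r was -0.95 and -0.80. Its highest level of all males, 14.50, was in replicate 5 of the CLP plus landiolol group, the dimmest array, where A_44_P359032 had 14.31 and the leading probe 16.97. The leading probe of Pink1 also fell with brightness, with r = -0.75 in males and -0.54 in females (adjusted permutation p = 0.00457 and 0.0547). A_44_P359032 rose, with r = 0.83 and 0.78 (adjusted permutation p = 0.00136 and 0.00783).

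The second probe of Opa1 rose with brightness, with r = 0.89 in males (rho 0.88, adjusted permutation p = 0.000595 and 0.00351). In females r was 0.78 (rho 0.79, adjusted permutation p = 0.00783 and 0.00553). Without the 2 farthest arrays r was 0.91 and 0.64. Tfam also rose, with r = 0.86 and 0.66 (rho 0.79 and 0.61). The adjusted permutation p was 0.000595 and 0.0224 for r, and 0.00377 and 0.044 for rho. When the 2 farthest arrays were left out, r was 0.87 and 0.51. The leading probe of Dnm1l had r = 0.54 in males and 0.77 in females (adjusted permutation p = 0.0602 and 0.00783). Its probes A_44_P972824 and A_44_P330170 passed in both sexes, with 0.89 and 0.82 in males and 0.74 and 0.86 in females. For Esrra, called lower after CLP in both sexes, r was 0.71 in males and 0.24 in females (rho 0.67 and 0.23, adjusted permutation p = 0.00766 and 0.397 for r, 0.017 and 0.435 for rho), and 0.70 and -0.02 without the 2 farthest arrays. The leading probes of Ppargc1a, Ppargc1b and Mfn1 did not pass. For Ppargc1a r was 0.22 in males and 0.60 in females (adjusted permutation p = 0.318 and 0.0547). Its rho was 0.48 and 0.50 (adjusted permutation p = 0.0539 and 0.0823). Without the 2 farthest arrays r was 0.12 and 0.23. The second probe of Ppargc1a did pass, with r = 0.59 in males and 0.77 in females (adjusted permutation p = 0.0233 and 0.00783). For Ppargc1b r was 0.25 in males and 0.23 in females (rho 0.34 and 0.27, adjusted permutation p = 0.318 and 0.397 for r, 0.182 and 0.38 for rho), and 0.26 and 0.38 without the 2 farthest arrays. For Mfn1 it was -0.08 and -0.32 (rho -0.09 and -0.34, adjusted permutation p = 0.79 and 0.24 for r, 0.747 and 0.255 for rho), and -0.03 and -0.39 without them.

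When brightness was put into the model as a term, which was added once the data had been seen, limma called 5 genes lower after CLP in each sex, beside 6.79% of all probes in males and 2.64% in females. In males Opa1 (-0.57, adjusted p = 0.00395) and Dnm1l (-0.50, adjusted p = 0.00897) joined Ppargc1b, Esrra and Mfn1. In females Mfn1 (-0.73, adjusted p = 0.00777) and Dnm1l (-0.53, adjusted p = 0.00831) joined Ppargc1a, Ppargc1b and Esrra. The estimates themselves moved little from those without the term. Ppargc1b after landiolol in males was 1.17 (adjusted p = 0.0391) and passed as well. Why the brightness of an array moves with these probes was not tested.

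**Figure D3:**
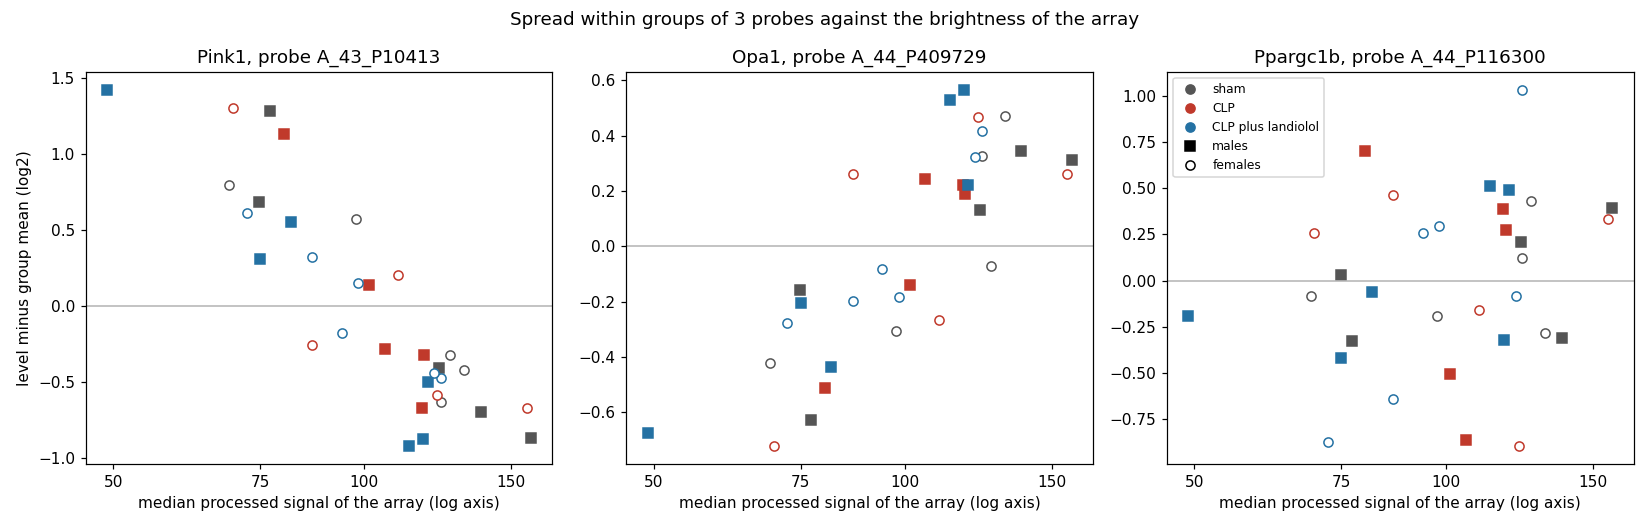
Level minus the mean of its group (y axis, log2) against the median processed signal of the array (x axis, log scale) for the junction probe of Pink1, the second probe of Opa1 and the leading probe of Ppargc1b, with squares for males, circles for females and colours for the groups. The Pink1 probe falls with brightness (r = -0.95 in males and -0.88 in females), the Opa1 probe rises (0.89 and 0.78), and Ppargc1b shows no clear trend (0.25 and 0.23).

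Promoter sequences, from 250 bases before to 50 bases after the start of a gene, were found in RefSeq (build GRCr8) for 9 of the 10 genes. They are shown up to the start for both coactivators, Esrra and Mfn1, the genes called lower after CLP, with motifs in capitals.
Ppargc1a, chr14:63634058-63634307, plus strand: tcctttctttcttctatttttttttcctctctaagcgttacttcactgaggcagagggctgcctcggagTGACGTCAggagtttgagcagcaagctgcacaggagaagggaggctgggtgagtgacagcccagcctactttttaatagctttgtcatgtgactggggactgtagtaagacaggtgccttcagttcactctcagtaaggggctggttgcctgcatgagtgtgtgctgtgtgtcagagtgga
Ppargc1b, chr18:57131467-57131716, minus strand: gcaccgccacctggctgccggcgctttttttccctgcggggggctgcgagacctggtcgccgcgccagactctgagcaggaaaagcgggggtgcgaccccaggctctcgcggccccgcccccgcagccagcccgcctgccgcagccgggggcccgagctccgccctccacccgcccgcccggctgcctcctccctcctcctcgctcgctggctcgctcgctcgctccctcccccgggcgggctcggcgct
Esrra, chr1:213543306-213543555, minus strand: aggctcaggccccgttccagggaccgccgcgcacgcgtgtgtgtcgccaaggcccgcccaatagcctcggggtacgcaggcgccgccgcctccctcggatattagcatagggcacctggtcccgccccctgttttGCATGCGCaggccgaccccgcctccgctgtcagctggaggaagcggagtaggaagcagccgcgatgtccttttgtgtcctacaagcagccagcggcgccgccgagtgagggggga
Mfn1, chr2:117241508-117241757, plus strand: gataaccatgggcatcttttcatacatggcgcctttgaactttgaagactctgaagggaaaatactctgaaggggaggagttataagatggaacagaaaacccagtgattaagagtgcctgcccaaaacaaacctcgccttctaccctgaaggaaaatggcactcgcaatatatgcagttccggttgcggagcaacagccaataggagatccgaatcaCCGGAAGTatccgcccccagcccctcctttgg
Searched on both strands, the cAMP response element TGACGTCA was found in the promoter of Ppargc1a, at position -181 from the start, and in 1.83% of the 33469 promoters of the table. The core of the site of NRF1, GCATGCGC, was found in that of Esrra, at -115, and in 2.47% of all. The ETS site CCGGAAGT, which GABP binds, was found in Mfn1, at -32, and in Tfam, at -56, and in 3.81% of all. The ERR site TNAAGGTCA was in none of the 9 windows and in 1.20% of all, and the promoter of Ppargc1b held none of the 4 motifs. These motifs overlap in no promoter of a member.

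Other genes of the pathway were taken from 6 lists and counted through their leading probes, and the shares of all probes called after CLP given above (3.94% lower and 3.88% higher in males, 1.82% each in females) are the background of these counts. Among coactivators and nuclear receptors of biogenesis, 2 of 15 genes tested were called lower after CLP in each sex, Perm1 and Ppara, and 0 higher. Perm1, a muscle regulator induced by PGC-1 and ERR, went from 13.43 to 10.28 in males (log2 fold change -3.15, standard error 0.35, adjusted p = 4.07e-05) and from 13.34 to 10.74 in females (-2.61, standard error 0.39, adjusted p = 0.000741). Ppara, the nuclear receptor of fatty acid oxidation, changed by -1.27 (adjusted p = 0.000646) and -0.93 (adjusted p = 0.000802). Perm1 was also the only gene of the 6 lists called higher after landiolol, with 1.43 in males (standard error 0.34, adjusted p = 0.0457). In females it had 0.29 (adjusted p = 0.880). For that comparison 1.56% of all male probes were called, in either direction. The medians of this list after CLP were -0.08 in males and -0.34 in females.

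Of the fission machinery, 1 of 11 genes was called lower after CLP in each sex and 0 higher. This was Mtfp1, a protein of the inner membrane that promotes division, with -2.01 in males (standard error 0.31, adjusted p = 0.000427) and -2.24 in females (standard error 0.30, adjusted p = 0.000342). The adaptors that recruit Drp1 were not called, Fis1 with -0.21 in males (adjusted p = 0.180) and 0.01 in females (adjusted p = 0.978), and Mff with -0.29 (adjusted p = 0.137) and -0.31 (adjusted p = 0.291). Of 20 genes of fusion and cristae, 2 were lower and 1 higher in males, and 1 lower and 0 higher in females, so that 1 gene among 20 is near the share over all probes. Mtx1, a subunit of outer membrane protein sorting, was called lower in both sexes, with -0.51 (adjusted p = 0.00148) and -0.66 (adjusted p = 0.00383). Slc25a46, an outer membrane protein of the fusion machinery, had -0.61 in males (adjusted p = 0.00255) and -0.59 in females (adjusted p = 0.0316), and Pld6, an outer membrane phospholipase that favours fusion, had 0.67 in both sexes (adjusted p = 0.00594 in males and 0.199 in females). Medians after CLP were -0.21 and -0.29 for fission, and -0.17 and -0.15 for fusion and cristae, in males and females.

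Of the genes that maintain and transcribe mitochondrial DNA, 1 of 18 was called lower in males, 0 were called lower in females and 0 higher in either sex, and the medians were -0.06 and -0.02. The gene called was Mpv17, an inner membrane protein needed for mitochondrial DNA (-0.68 in males, adjusted p = 0.00102, and -0.33 in females, adjusted p = 0.0888). Of 20 genes of mitophagy and transport, 1 was higher and 1 lower in males, near the share over all probes, and 0 were called in females. Bnip3, a mitophagy receptor of the outer membrane, rose by 1.35 in males (standard error 0.28, adjusted p = 0.00440) and had 1.40 in females (standard error 0.35, adjusted p = 0.0188). Trak2, an adaptor that carries mitochondria along microtubules, changed by -0.76 in males (adjusted p = 0.000923) and had -0.57 in females (adjusted p = 0.0940). Rhot1, the anchor of that transport on mitochondria, was called lower after landiolol in males (-0.71, standard error 0.16, adjusted p = 0.0359) and had -0.46 in females (adjusted p = 0.645). The medians after CLP were 0.05 and 0.09.

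Among 12 textbook targets of PGC-1 and ERRα, 1 was called lower after CLP in each sex and 0 higher, with medians of -0.15 and -0.14. This was Ucp3, a carrier of the inner membrane, with -2.77 in males (standard error 0.40, adjusted p = 0.000245) and -2.87 in females (standard error 0.55, adjusted p = 0.00370). Cycs, cytochrome c, had -0.39 (adjusted p = 0.0989) and -0.53 (adjusted p = 0.0780), and Cpt1b, which lets fatty acids into mitochondria, -0.05 (adjusted p = 0.852) and 0.05 (adjusted p = 0.898). Besides Perm1 and Rhot1 in males, no gene of the 6 lists was called after landiolol in either sex. Over all probes, 1.56% were called for landiolol vs CLP in males and 0.0945% in females. The male count over the 6 lists is thus near the share over all probes.

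**Figure D4:**
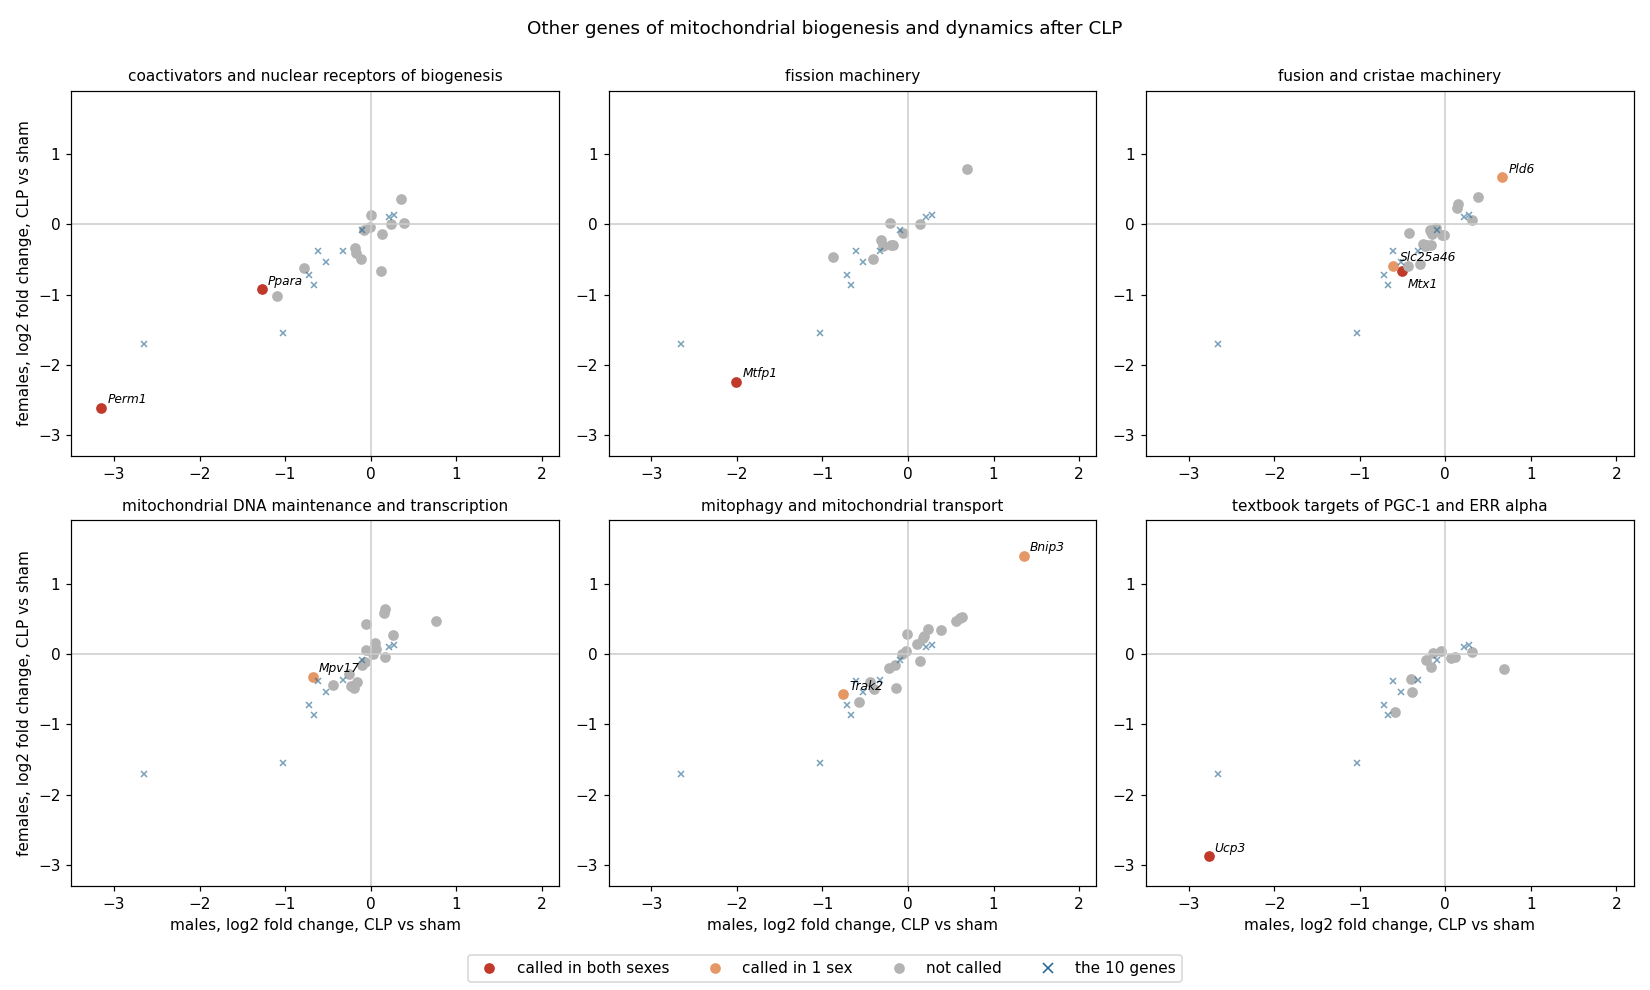
Log2 fold change of CLP vs sham in males (x axis) and females (y axis) for the genes of the 6 lists tested in both sexes, coloured by whether they were called in both sexes, in 1 or in none, with the 10 regulators as blue crosses in every panel. Perm1, Ppara, Mtfp1, Mtx1 and Ucp3 were called in both sexes. The sexes come from separate fits and share no arrays.

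The genes with a pattern nearest to that of Ppargc1b, the member with the largest mean change after CLP, were found over 4 values, the log2 fold changes of CLP vs sham and of CLP plus landiolol vs CLP in both sexes. They were Aldh1a3, with a root mean square difference of 0.17, Kazald1 with 0.24 and Trim7 with 0.26. Aldh1a3, an enzyme that makes retinoic acid, had changes of -2.71 after CLP and 0.78 with landiolol in males, and of -1.64 and 0.34 in females.

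The defining markers of cardiomyocytes were well above background on every array, and their summed linear level ranged from 2720000 to 3071000 in male CLP hearts and from 2884000 to 3210000 in male sham hearts, with 0 of 10 markers called after CLP in either sex. Macrophage markers were higher after CLP for 6 of 7 genes in each sex, 3 of them called (Adgre1, Cd68 and Lyz2), and their sum went from 15430 to 20800 in sham to 33300 to 48800 in CLP males, and from 17900 to 25890 to 33830 to 52480 in females. Of 6 neutrophil markers 2 were kept, S100a8 and S100a9, both well above background on all CLP and CLP plus landiolol arrays and neither on all sham arrays, with S100a8 on no male sham array, so that their calls (both genes higher in males, S100a8 in females) follow in part from the filter. Of 6 endothelial markers 1, Emcn, was called lower in both sexes and 0 higher, with 2 higher and 4 lower by sign in each sex. The median of their sum went from 50290 in sham to 55820 in CLP males, and from 40630 to 51450 in females. Of 7 fibroblast markers 3 collagens (Col1a1, Col1a2 and Col3a1) were called lower and Tcf21 higher in males, and 0 in females. Of the lymphocyte markers 2 of 5 were kept in males and 1 in females, of the smooth muscle and pericyte markers 0 of 6 were called in males and 1 (Rgs5) in females, and Adipoq and Plin1 of the adipocyte were not well above background on any array. Their part in the values of the 10 genes was not tested. The number of spots well above background was between 34920 and 43155 per array and no spot was saturated.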

How the data were processed

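Left ventricular RNA of 32 rats was measured on 1-colour Agilent arrays, 1 rat per array, and groups were taken from the sex and treatment of the labels. The replicate number of an array only names it. The authors deposited the scanner output, made with Agilent Feature Extraction 10.5 (per the labels), which gives intensity values per spot, already background-subtracted and detrended in the processed signal. The protocol was GE1_107_Sep09 for the first of the 2 female slides and GE1_105_Dec08 for all other arrays, so in females protocol and slide cannot be told apart. The files also carry other columns per spot, such as annotation and quality marks, per the file headers. A further deposited set of log2 values, quantile-normalised and filtered by the authors, served as an alternative. The precision is set by the number of arrays, 5 or 6 per group.

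Control spots and outlier spots were left out, log2 of the processed signal was taken, spots of the same probe were averaged, and quantile normalisation was run on the 16 male and the 16 female arrays separately. The tests used limma 3.58.1 (lmFit, eBayes; the 3 groups of a sex in 1 model) under R 4.3.3. Benjamini-Hochberg adjustment covered all probes kept. The FDR was 1% for either comparison with sham, and 5% for the effect of landiolol in CLP rats and for the sex interaction, which used the 32 arrays normalised together. The paper used SAM, which was run here as an alternative with 100 drawn permutations. The other alternatives were scaling, background correction, filter, arrays in the fit, slide, row of the slide, the table of the authors, FDR, probe choice, brightness of the array and leaving out each array. Simulated data of 25835 male probes for CLP vs sham had normal noise and 200 probes changed by 1 or 2 units on the log2 scale. In them limma recovered 37% of the changes of 1 unit and 82% of those of 2 units. Over the other comparisons and sexes these shares were 42% to 57% and 84% to 94%. In the real male comparison 2021 probes were called, many more than were changed in the simulation, so these shares do not carry over to the data.

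The members, lists and tests were chosen with earlier results of these data known. Genes named from the lists are those called, up to 2 that rose most and up to 2 that fell most, in each comparison with CLP in each sex. Esrra, Tfam and other single-probe genes rest on 1 probe each. Fis1, Mff, Cycs and Cpt1b, and the marker genes, were named outside that rule, after their values were seen.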

Additional observations from a re-analysis of the deposited data

Results flagged for a closer look

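In 60 checks of the leading probe of each of the 10 genes in each of the 6 groups, 1 heart stood apart from its group by Dixon's criterion, and chance flags about 1 in 20 groups. This was Ppargc1a in replicate 5 of the female CLP group, with a level of 6.69 against 7.98 in the next lowest heart, a gap that made up 0.862 of the range of the group. Its array was also the dimmest of that group, with a median processed signal of 69.6 beside a group median of 109.8. Whether the low level goes with the low signal was not tested. Without that array the gene was still called lower after CLP in females. The high level of Ppargc1a in replicate 1 of the male CLP group, 9.59, did not meet the criterion.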

How the results depend on the processing

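No paired analysis was possible because the labels give no replicate numbers that tie arrays of different groups together. At an FDR of 5% in place of 1%, 5 genes were called after CLP in each sex, and 4 in males and 6 in females for CLP plus landiolol vs sham. The share of all probes called was not computed at that FDR, so these counts cannot be set against a background. The other counts below have no such share beside them either, except those with brightness after CLP, given above. With brightness in the model, added once the data had been seen, 5 were called after CLP in each sex. The male count after CLP was 2 with 75th percentile scaling, without a filter, in a fit of only those 2 groups and with a slide or a row term, Esrra being lost in each, and 2 with the mean of the probes, where Mfn1 was lost. For landiolol vs CLP in males, 1 was called with normexp (Mfn1) and 1 with a slide term, by SAM and with brightness (Ppargc1b each time). After CLP in females 1 (Ppargc1b) was called in a fit of only those 2 groups and 0 with a term for the slide row. For CLP plus landiolol vs sham in females 4 were called with normexp, by SAM and with brightness, 1 without a filter and 0 with the row, which cannot be told apart from the group there. Leaving out single arrays gave 0 to 2 calls for landiolol vs CLP in males, 1 to 3 after CLP in females and 1 to 3 for landiolol vs sham in females.

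Sign changes were of values that were not called, and their causes were not tested. The largest were those of Nrf1 in females with the row, up to -0.308 for landiolol vs sham, where the main value was 0.161. For landiolol vs CLP in males, Opa1 had 0.007 with the row, 0.037 in the authors' table and 0.111 with brightness, and with brightness Nrf1 had -0.009, Mfn2 0.098 and Dnm1l 0.018. For landiolol vs sham in males, Pink1 had -0.047 in the authors' table and -0.051 with brightness, and Tfam 0.071 with brightness. After CLP in females, Nrf1 had -0.053 with the row and -0.064 as the mean of its probes. For landiolol vs CLP in females, 75th percentile scaling gave Esrra -0.022 and Nrf1 -0.010, the row gave Ppargc1b -0.031, Nrf1 -0.255, Mfn2 0.178 and Dnm1l 0.007, and brightness gave Nrf1 -0.021. Nrf1 had -0.308 for landiolol vs sham in females with the row, and the sex difference of Pink1 was -0.005 with 75th percentile scaling. Without single arrays, landiolol vs CLP in males ranged from -0.003 to 0.127 for Nrf1, -0.144 to 0.041 for Mfn2, -0.095 to 0.079 for Opa1 and -0.119 to 0.032 for Dnm1l, and Pink1 vs sham from -0.026 to 0.046. In females Nrf1 ranged from -0.032 to 0.309 and Tfam from -0.001 to 0.162 after CLP, and for landiolol vs CLP Esrra from -0.067 to 0.102, Nrf1 from -0.148 to 0.193, Tfam from -0.027 to 0.094, Mfn2 from -0.278 to 0.018 and Dnm1l from -0.159 to 0.007.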
